A study of Oryctolagus cuniculus with 8 samples.

Results

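NT5C3B, a cytosolic 5'-nucleotidase, was followed by its single probe across the 8 forebrain samples of the series. The gene was taken as every non-control probe that the array's annotation assigns to NT5C3B, to its older symbol NT5C3L or to its RefSeq gene entry, and 1 of the 43603 probes met this, standing for 1 of 23398 genes and transcripts. It had been selected on its log2 difference and adjusted p between the treatments in these same samples, so its own difference is given as a description with no test. The comparison set was 5 probes of 4 other genes whose annotation names a 5'-nucleotidase, and the 3 probes of NT5E, whose annotation spells the name without the hyphen.

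Cytosolic 5'-nucleotidases remove the phosphate from nucleoside monophosphates and so turn nucleotides back into nucleosides. The human and fruit fly NT5C3B enzymes act on cytidine monophosphate and on 7-methylguanosine monophosphate, the methylated nucleotide that is left when messenger RNA caps are broken down. Its closest relative, NT5C3A, is the pyrimidine-specific enzyme of red blood cells, and its loss in humans causes a haemolytic anaemia.

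The tested pups had been given dexamethasone, a synthetic glucocorticoid, by intramuscular injections of 0.25 mg/kg, 2 of them daily over no more than 5 days (labelled high-dose), and the others had been given saline. All were New Zealand rabbits delivered by Caesarean section at day 29 of a gestation of 32 days, kept in an incubator and fed formula, and their forebrains were taken at postnatal day 14. Each group held 4 samples, which the series describes as biological replicates. The 8 samples were hybridised to 4 two-colour arrays, each with 2 samples of the same group, 1 in Cy3 and 1 in Cy5. Both dexamethasone arrays lay on one slide with one scan and both saline arrays on another, so slide, scan and treatment cannot be told apart.

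Between 47.7% and 64.3% of spots were well above background in dexamethasone samples and between 39.1% and 59.7% in saline samples, and 0 spots were saturated. Outlier spots numbered 197 to 509 in dexamethasone samples and 932 to 3022 in saline samples. Of the 10787 genes tested with limma, 7 passed a Benjamini-Hochberg adjusted p of 0.05 (0.0649%), 2 higher and 5 lower with dexamethasone, and 1496 (13.9%) had an unadjusted p under 0.05. Neuronal genes defined the tissue, with SYT1, STMN2, MAP2, NEFL and RTN1 measured and NEFM below the filter on dim probes. Of the lists for other cell types, 2 had summed normalised intensities that did not overlap between groups. Among single genes tested, 13.3% had groups that did not overlap, and no such share was taken for sums. The leukocyte sum was 1111 to 1304 in 4 dexamethasone samples and 1717 to 2141 in 4 saline samples, over 2 of 7 listed genes, with PTPRC, CD3E, S100A8 and CD79B below the filter. The endothelial sum was 2587 to 3157 in 4 dexamethasone samples and 2100 to 2391 in the 3 saline samples with all values, over 3 of 9 listed genes. The erythroid sum, of HBB2, HBA and ALAS2, spanned 108340 to 226350 in dexamethasone samples and 40884 to 233040 in saline samples. None of the listed marker genes passed the test, and their part in the NT5C3B difference was not tested.

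The probes that carry the result are printed here 5′ to 3′ as the array files give them. They are the NT5C3B probe, both probes of its relative NT5C3A, and the probes of 4 spots that adjoin the NT5C3B spot on the array and are described below. In each sequence but the first, capitals mark the longest run of bases that it shares with the NT5C3B probe on either strand.
NT5C3B, probe A_04_P044532: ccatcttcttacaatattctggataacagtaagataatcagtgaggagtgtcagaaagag
NT5C3A, probe A_04_P002531: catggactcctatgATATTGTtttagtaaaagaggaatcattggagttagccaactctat
NT5C3A, probe A_04_P002532: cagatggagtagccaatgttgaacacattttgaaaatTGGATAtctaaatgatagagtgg
A_04_P078773: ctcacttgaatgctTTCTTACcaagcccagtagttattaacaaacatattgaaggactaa
DOCK1, probe A_04_P098877: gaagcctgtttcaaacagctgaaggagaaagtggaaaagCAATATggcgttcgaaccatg
A_04_P087609: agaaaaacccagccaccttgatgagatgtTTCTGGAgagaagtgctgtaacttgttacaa
EB381782, probe A_04_P019371: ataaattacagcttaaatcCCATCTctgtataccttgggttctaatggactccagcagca

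The 60-base NT5C3B probe was placed by the array's annotation on the minus strand of rabbit build oryCun2 at chr19:42728608-42728745, and it starts at base 168 of its transcript. That interval is 138 bases long, so 78 bases within it are not in the probe. The NT5C3A probes were placed on the minus strand of chromosome 10, A_04_P002531 at chr10:16842400-16842459 and A_04_P002532 at chr10:16842479-16843049. Neither NT5C3A probe shared more than 7 bases in a row with the NT5C3B probe, and the run in A_04_P002531 was on the opposite strand. Over the 43602 other probes, the median longest shared run was 6 bases and the longest was 13 bases.

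The NT5C3B spot was brighter on both dexamethasone arrays than on both saline arrays, in both dyes. Its mean signal, in scanner units, was 1337, 1664, 868 and 963 in dexamethasone samples 1 to 4, against 155, 209, 133 and 225 in saline samples 1 to 4. The local background was 24, 42, 27 and 33 units in dexamethasone samples and 37.5, 33, 36 and 38.5 units in saline samples. The groups did not overlap in signal, and the backgrounds were of like size. The spot was well above background in 4 of 4 dexamethasone samples and in 2 of 4 saline samples, both of them Cy5 samples. It was never saturated or marked an outlier. The brightness of the pixels within the spot varied by 5.77% to 8.19% (coefficient of variation over 60 to 62 pixels) in dexamethasone samples and by 21.2% to 34.1% (64 to 65 pixels) in saline samples.

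After background correction, loess and Aquantile normalisation, the log2 intensity of NT5C3B was 10.77, 10.18, 10.35 and 9.76 in dexamethasone samples 1 to 4 and 8.32, 8.48, 8.38 and 8.42 in saline samples 1 to 4. The means were 10.27 ± 0.42 with dexamethasone and 8.40 ± 0.07 with saline (SD, n = 4 each), a log2 difference of 1.87 with a standard error of 0.20 in the fit. The lowest dexamethasone sample lay above the highest saline sample.

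The spread of NT5C3B was uneven. Its SD among dexamethasone samples was larger than that of 94.3% of 9782 genes with all values, and its SD among saline samples was larger than that of 16.8% of them. On both dexamethasone arrays the Cy5 sample lay below the Cy3 sample, by -0.59 log2 units each time (Cy5 minus Cy3), whereas the same quantity was 0.17 and 0.04 on the saline arrays. Within a dye, the log2 difference between dexamethasone and saline was 2.22 in Cy3 samples and 1.52 in Cy5 samples (2 against 2). The plot of NT5C3B by sample shows these values.

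**Figure D1:**
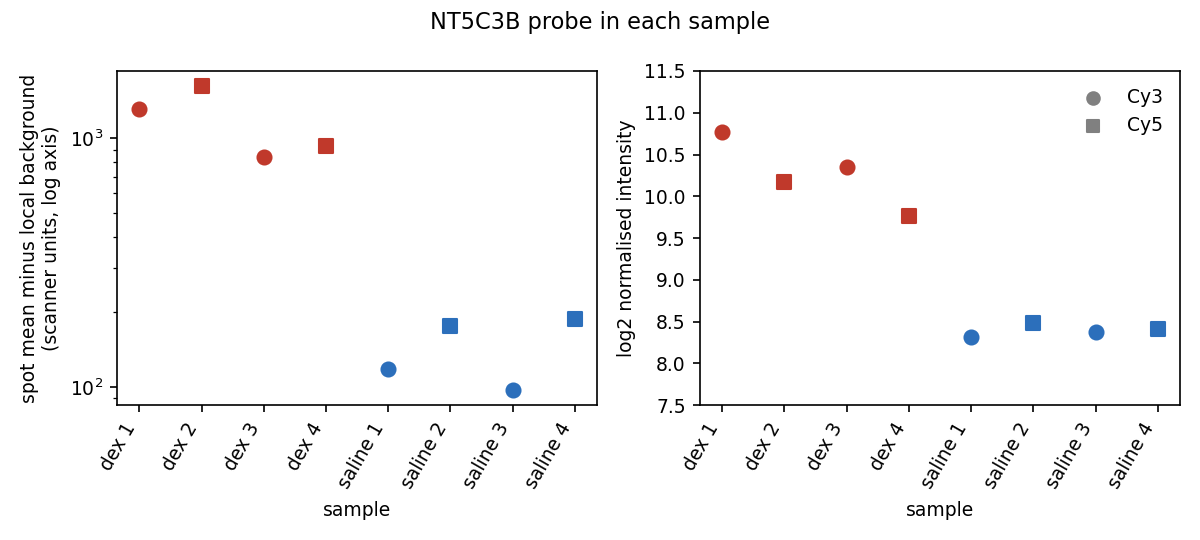
NT5C3B probe in each of the 8 samples (x axis), as the spot mean minus its local background in scanner units on a log axis (left) and as log2 normalised intensity (right). Red points are dexamethasone samples and blue points saline samples, circles are Cy3 and squares Cy5, and the lowest dexamethasone value (9.76) stands above the highest saline value (8.48).

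The spots printed next to NT5C3B on the array were also brighter with dexamethasone. Of the spots that adjoin it, 4 were well above background in 0 of 4 saline samples and met the filter on dim probes only through the dexamethasone samples. Their differences are therefore lower bounds, within this normalisation only. A_04_P078773 was at least 4.71-fold higher with dexamethasone (log2 2.24), DOCK1 at least 4.43-fold (log2 2.15), A_04_P087609 at least 3.56-fold (log2 1.83) and EB381782 at least 3.31-fold (log2 1.73). Each bound sets the dexamethasone mean against, for each saline sample, the probe itself or the dimmest probe well above background, whichever was brighter. For these 4 probes it was the probe itself, so each bound equals the plain difference. The sizes, and their order with NT5C3B, depend on the background correction: with processed signals the log2 differences were 5.85 for DOCK1, 5.20 for A_04_P087609, 5.04 for EB381782 and 3.81 for NT5C3B. Over all settings the lowest were 0.58 for DOCK1, 0.45 for A_04_P087609, 0.63 for EB381782 and 0.19 for NT5C3B. EB381782 was among the 7 genes called, a call that was lost in 12 of the 31 settings, and the other 3 were not called. Because these 4 probes passed the filter only through the samples in which they were bright, their differences are given as a description with no test. DOCK1 is an exchange factor for the small GTPase Rac, and the other 3 are transcripts with no symbol in the annotation used. The NT5C3B probe shared 6 or 7 bases in a row with these 4 probes, near the median of 6 bases over all probes, and 3 of them were placed by the annotation on chromosomes 13, X and 15.

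Of all 43803 non-control spots, 1.26% had a log2 difference above 0.5, whereas 6 of the 6 spots within 100 µm of NT5C3B did. The lowest of the 6 was ENSOCUT00000006931 at 0.88. The median log2 difference was 1.78 over these 6 spots, 0.11 over the 12 spots at 100 to 150 µm, 0.08 over the 18 spots at 150 to 250 µm and -0.05 over the 72 spots at 250 to 400 µm. Above 0.5 stood 2 of the 12 spots, 5 of the 18 spots and 1 of the 72 spots. The high values thus lay mostly within 250 µm of the NT5C3B spot, as the plot against distance shows.

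**Figure D2:**
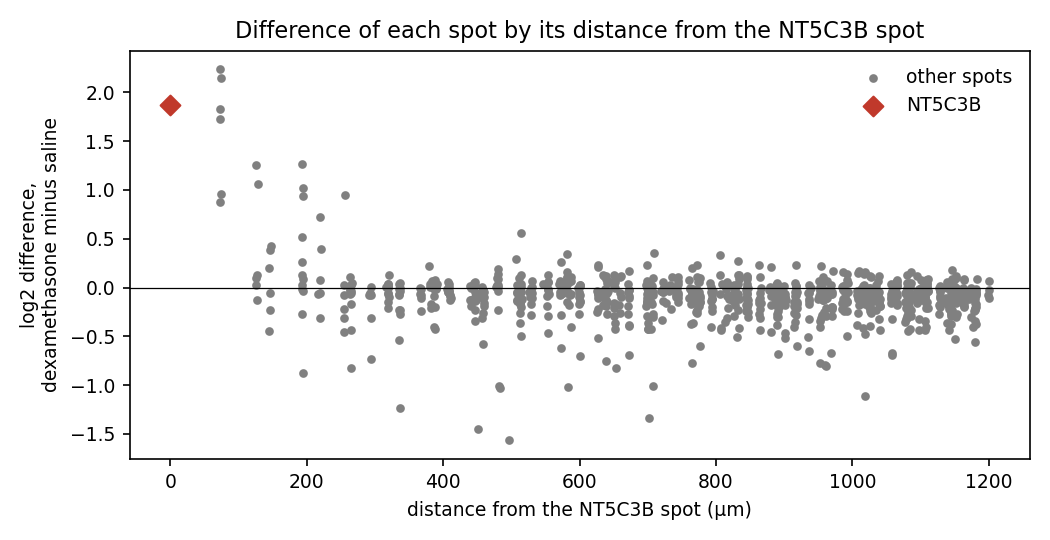
Log2 difference between dexamethasone and saline (y axis) of each non-control spot against its distance from the NT5C3B spot in µm (x axis), with NT5C3B as a red diamond. The 6 spots within 100 µm lie at 0.88 to 2.24, and beyond 250 µm the medians lie near 0.

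ENSOCUT00000006931 had 5 other probes elsewhere on the array, at log2 differences of 0.08 to 0.24. NT5C3B, DOCK1, EB381782, A_04_P078773 and A_04_P087609 have 1 probe each, so the array holds no second reading of them.

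The 4 neighbours that were not well above background in saline samples reached at least 377 scanner units above it in every dexamethasone sample. DOCK1 had 1499, 1663, 510 and 456 units above background in dexamethasone samples and 62.7, 37.4, 85.8 and 35.4 units in saline samples. EB381782 had 609, 587, 493 and 458 units with dexamethasone and 56.5, 24.2, 50.9 and 19.6 units with saline. Neither gene was well above background in any saline sample, while both were in all 4 dexamethasone samples. The difference of the group means was 1032 units for NT5C3B, 976 for DOCK1, 1018 for A_04_P078773, 605 for A_04_P087609, 544 for ENSOCUT00000006931 and 499 for EB381782. Slightly farther away, at 125 µm, it was 20.8 units for XIRP2, an actin-binding protein of muscle, and 31.4 units for A_04_P069397. Not all spots at that distance were so even: of the 12 spots at 100 to 150 µm, 2 had a log2 difference above 0.5. These were A_04_P053137 at 126 µm (1.26) and A_04_P080374 at 128 µm (1.06).

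The bright spots covered a wider area on one dexamethasone array than on the other, and NT5C3B lay inside both areas. Of the 36 spots within 250 µm, 16 stood more than 0.5 above the saline mean on the array of dexamethasone samples 1 and 2, the farthest at 221 µm. On the array of samples 3 and 4 there were 7, the farthest at 128 µm. A bright spot also lay just past the 250 µm cut on the array of samples 1 and 2. There A_04_P043487, at 256 µm, deviated by 1.49 from the mean of all 8 samples, against -0.47 on each saline array. The median over the 6 nearest spots was 2.34, 1.61, 1.86 and 1.20 above the saline mean in dexamethasone samples 1 to 4, against 2.37, 1.78, 1.96 and 1.37 for NT5C3B itself. The order of the 4 samples was the same for NT5C3B and for that median, though not for every one of the 6 spots: DOCK1, A_04_P078773 and ENSOCUT00000006931 were higher in sample 2 than in sample 3. The saline arrays differed from each other by -0.08 to 0.17 at these 6 spots and by 0.002 at NT5C3B.

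**Figure D3:**
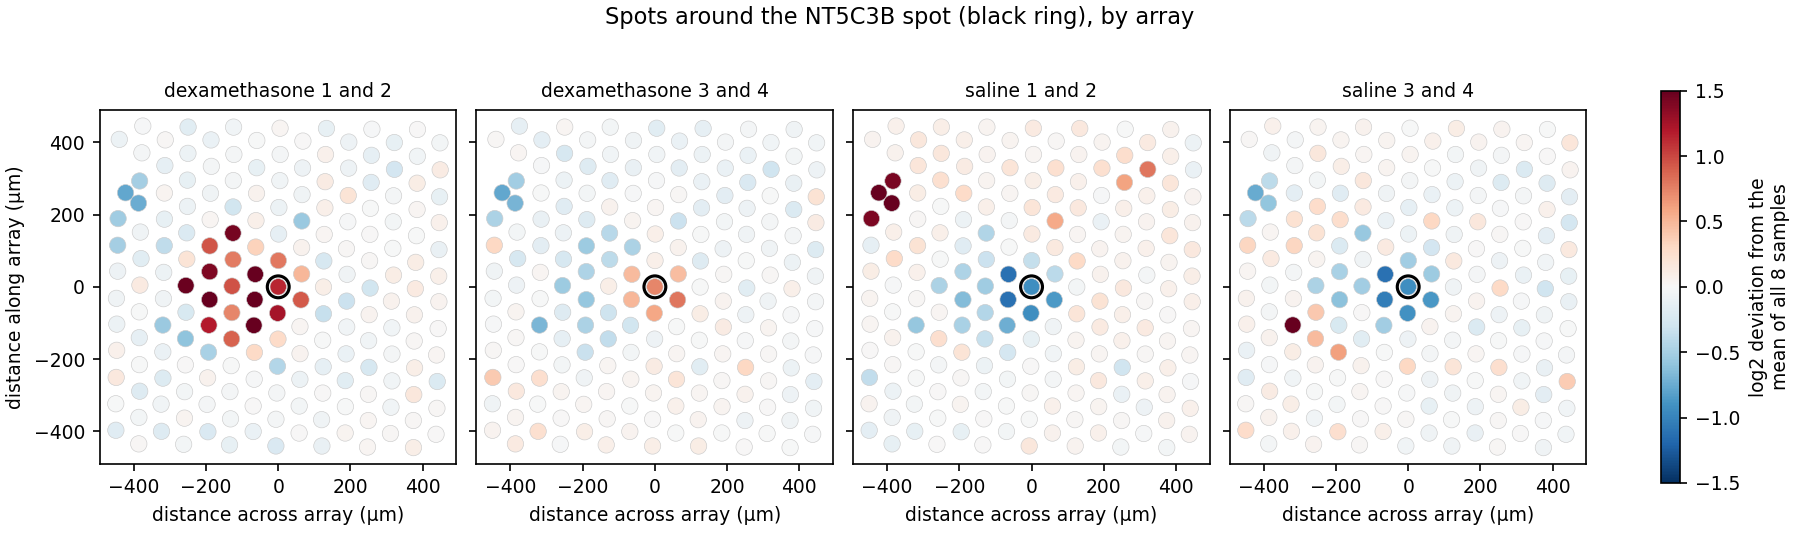
Map of the spots within 450 µm of the NT5C3B spot (black ring), one panel per array, with distance across and along the array in µm on the axes. Colour is the log2 deviation of the array's 2 samples from the mean of all 8 samples, cut at -1.5 and 1.5, and the spots touching NT5C3B are red on both dexamethasone arrays and blue on both saline arrays.

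With the median of its 6 nearest spots subtracted in every sample, a setting chosen after the data were seen, NT5C3B stood at 9.32, 9.46, 9.51 and 9.62 in dexamethasone samples and 9.20, 9.38, 9.26 and 9.30 in saline samples. The log2 difference was then 0.19 and the groups overlapped. With the 8 nearest spots, which take in XIRP2 and A_04_P069397, it was 0.53 and the groups did not overlap. A probe's place on the slide and the treatment cannot be told apart for this gene, because both dexamethasone arrays share a slide and the gene has a single spot.

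The other 5'-nucleotidases showed no called difference, where 0.0649% of all genes tested were called. NT5C3A, measured by 2 probes well above background in all 8 samples, had log2 values of 11.002, 10.75, 10.86 and 10.72 in dexamethasone samples and 10.66, 10.75, 10.63 and 10.89 in saline samples at its brighter probe. Its log2 difference was 0.10 ± 0.12 (SE) at that probe and -0.10 ± 0.11 (SE) at the other, and the groups overlapped at both. The 2 probes thus leaned opposite ways by less than their errors.

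NT5C2, which acts on purine monophosphates, had 10.31, 10.19, 10.38 and 10.32 with dexamethasone and 10.10, 10.12 and 9.66 in the 3 saline samples with a value. Its groups did not overlap, but the log2 difference of 0.36 ± 0.15 (SE) had an adjusted p of 0.36 (limma). NT5DC3, a family member of little-known function, had 8.36, 8.68, 8.53 and 8.72 with dexamethasone and 8.77, 8.85, 8.83 and 8.85 with saline. Its log2 difference was -0.25 ± 0.10 (SE) with an adjusted p of 0.35 (limma), and its groups did not overlap. Over all genes tested, 13.3% had groups that did not overlap. The median over the 8 spots nearest to NT5DC3 was -0.21, close to its own difference, and that for NT5C2 was 0.12.

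NT5E, the ecto-enzyme CD73 that makes extracellular adenosine, had log2 differences of 0.03, 0.06 and -0.03 at its 3 probes, of which the second did not pass the filter on dim probes, and the groups overlapped at each. NT5C1A, known as the AMP-preferring enzyme of muscle, was not well above background in any of the 8 samples. The plot of 5'-nucleotidase probes gives every sample.

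**Figure D4:**
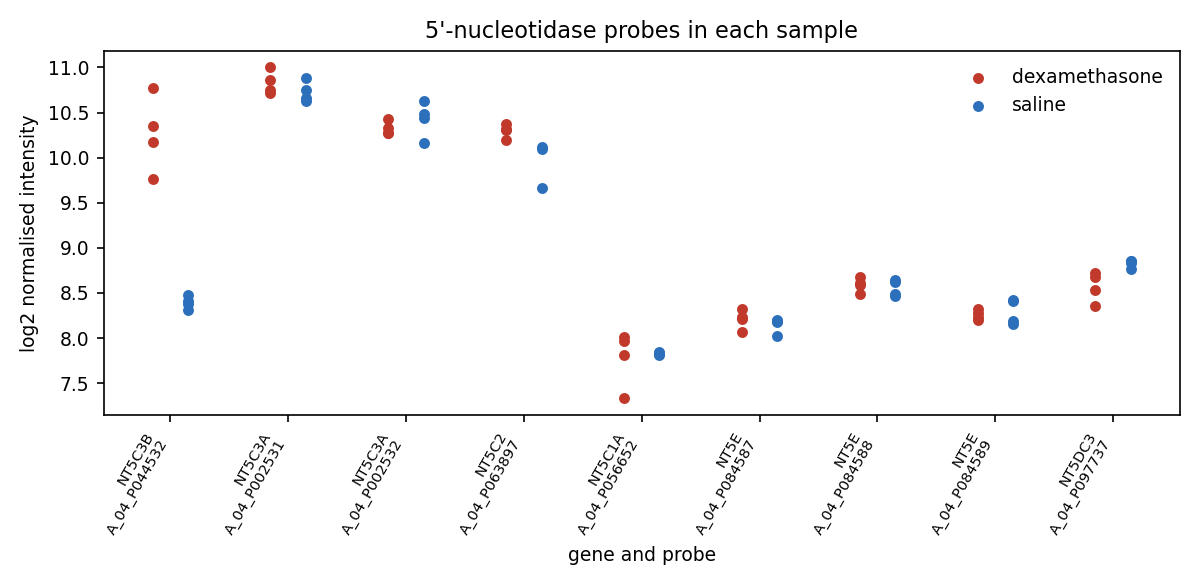
Log2 normalised intensity (y axis) of the 9 probes of 6 5'-nucleotidase genes (x axis), with 4 dexamethasone samples in red on the left and 4 saline samples in blue on the right of each position. NT5C3B is the only probe with a wide gap between groups (10.27 against 8.40 on average); values of different probes are not comparable in height.

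Gene lists around the enzyme's substrates and products were set beside it. NT5C3B aside, 0 genes were called higher and 0 lower in each of them by limma, where 0.0649% of all genes tested were called. Without NT5C3B, 4 tested 5'-nucleotidases of 13 listed had a median log2 difference of 0.07, against 0.02 for all genes, with 2 at an unadjusted p under 0.05, which 13.9% of all genes tested had. Of 30 listed genes of cap synthesis, binding and decay, 15 were tested, with a median of -0.02 and 1 at an unadjusted p under 0.05. That gene was LSM6, a subunit of an LSM ring that takes part in messenger RNA decay, at -0.25 ± 0.10 (SE). LSM5, of the same ring, stood at -0.22 and FHIT, a dinucleoside triphosphatase, at -0.19.

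Of 29 pyrimidine genes, 15 were tested and 0 had an unadjusted p under 0.05, with a median of -0.08. UCKL1, related to uridine-cytidine kinases, stood at -0.28, RRM2, a ribonucleotide reductase subunit, at -0.19, and TK1, thymidine kinase, at -0.17. Of 33 purine genes, 15 were tested, with a median of 0.12. An unadjusted p under 0.05, which 13.9% of all genes tested had, was reached by 3 of the 15. These were ADSS2, of adenylate synthesis, at 0.32 ± 0.10 (SE), IMPDH1, of guanylate synthesis, at 0.36 ± 0.11 (SE), and PNP, which splits purine nucleosides, at 0.30 ± 0.12 (SE). Groups did not overlap in 3 of the 15 tested purine genes, ADSS2 and IMPDH1 among them, against 13.3% of all genes tested. ADSS2, IMPDH1 and PNP each had an adjusted p of 0.30 to 0.36 (limma).

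Of 25 genes of extracellular nucleotides and nucleoside transport, 6 were tested and 0 had an unadjusted p under 0.05, with a median of -0.09. ADORA2A, an adenosine receptor, stood at -0.20, SLC29A2, a nucleoside transporter, at -0.15, and ENTPD6, a nucleotide-splitting enzyme, at 0.17. NT5C3B belongs by fold to the haloacid dehalogenase (HAD) phosphatases, of which 8 of 19 listed were tested, with a median of 0.03. Of these 8, 4 had an unadjusted p under 0.05, against 13.9% of all genes tested.

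NANP, a phosphatase of sialic acid synthesis, had log2 values of 10.14, 10.20, 10.24 and 10.29 in dexamethasone samples and 10.80, 10.46, 10.91 and 10.75 in saline samples. HDHD3 had 11.15, 11.27, 11.30 and 11.22 with dexamethasone and 11.93, 11.57, 11.66 and 11.68 with saline. Their differences of -0.51 ± 0.12 and -0.47 ± 0.12 (SE) had adjusted p of 0.24 and 0.25 (limma), and neither gene's groups overlapped. Another NANP spot, 772 µm from the NT5C3B spot, went the other way, with a log2 difference of 0.23 (no test). The drop in NANP thus rests on 1 of its probes. EPHX2, which joins a phosphatase to an epoxide hydrolase, stood at 0.33 ± 0.12 (SE) with an adjusted p of 0.33 (limma). Groups did not overlap in 4 of the 8 tested genes of this list, against 13.3% of all genes tested. Those other than NANP and HDHD3, EPHX2 among them, were higher with dexamethasone.

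**Figure D5:**
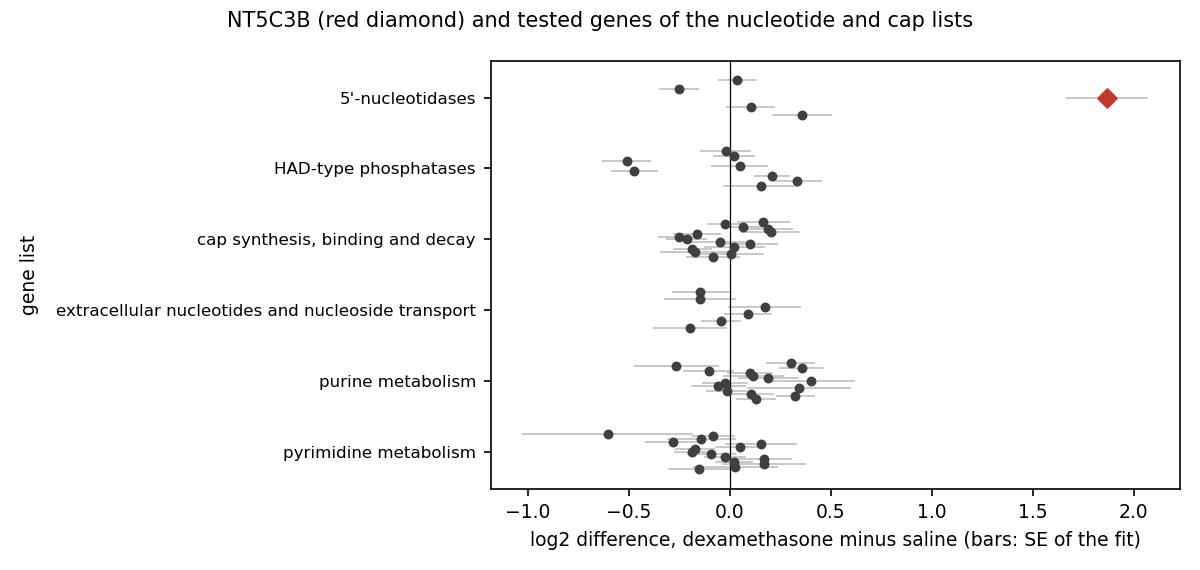
Log2 difference between dexamethasone and saline (x axis, with the SE of the fit as bars) of each tested gene in 6 lists (y axis), with NT5C3B as a red diamond. Apart from NT5C3B at 1.87, the genes lie between -0.61 and 0.40.

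The genes next to NT5C3B on the chromosome showed no called difference. Of the 10 genes on each side in the RefSeq order of assembly mOryCun1.1, 20 in all, 7 had a probe and 4 passed the filter and were tested. None of the 4 was called or had an unadjusted p under 0.05 (limma). Over all genes tested, 0.0649% were called and 13.9% had an unadjusted p under 0.05, so 4 genes without a call say little. NKIRAS2, a Ras-like protein that binds inhibitors of NF-kappaB, stood at 0.40 ± 0.18 (SE), JUP, the junction protein plakoglobin, at 0.17 ± 0.13 (SE), P3H4 at 0.12 ± 0.14 (SE) and EIF1, a translation initiation factor, at 0.02 ± 0.13 (SE). All 4 had overlapping groups. The nearest of them, P3H4, lies 2 genes away.

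The genes whose pattern over the 8 samples was most like that of NT5C3B included 3 of its neighbours on the array. By Pearson's r over 8 samples among 9782 genes, given as a description, they were A_04_P087609 (0.993), EB381782 (0.992), AY171792 (0.985), CPNE2 (0.982) and DOCK1 (0.978). NT5C3B was selected on its difference between these groups, and r over the same samples takes in that difference, so the ranking is no separate evidence. All of these but CPNE2 passed the filter on dim probes only through the dexamethasone samples. The spots of A_04_P087609, EB381782 and DOCK1 adjoin the NT5C3B spot, while AY171792 lies 5645 µm and CPNE2, a copine, 10718 µm away. AY171792, also well above background in 0 of 4 saline samples, was at least 2.42-fold higher with dexamethasone in this normalisation (log2 1.27). Of its own 8 nearest spots, 2 stood above 0.5. CPNE2 had a log2 difference of 0.31.

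With the means of each group and dye taken out, the order was ARMC1 (0.999), A_04_P005840 (0.995), A_04_P048710 (0.993), HCCS, which attaches haem to cytochrome c (0.989), and DOCK1 (0.988). Of these only DOCK1 adjoins NT5C3B. The samples share arrays in pairs, so these coefficients rest on few independent deviations.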

How the data were processed

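Each deposited scanner file holds the spot intensity (mean and local background median per dye) of 1 array, written by Agilent Feature Extraction. The submitters' processing notes give its version as 10.7.3.1, and 11.0.1.1 stands in the deposited headers. The signal in the authors' deposited table equalled spot median minus background over a constant for each column (within 0.1%, column median 1). Intensities were corrected with normexp (offset 50), normalised by loess and Aquantile, and outlier spots left out. Probes had to be well above background in 4 or more of the 8 samples, and the brightest stood for a gene with 3 or more values a group. limma 3.58.1 (R 4.3.3) was fitted with dye as covariate and array as random block (correlation 0.241), Benjamini-Hochberg adjusted over 10787 genes, and tested on simulated data. The number of arrays limits the precision. Distances between spots come from their scanner positions at 5 µm a pixel.

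NT5C3B and all gene lists were chosen with earlier results of these data known, and no list is independent evidence. Named genes were NT5C3B, measured 5'-nucleotidases, the 3 members of smallest p in each other list, tested neighbours within 10 genes, and the 5 genes most alike over the 8 samples by each measure. Spots adjoining NT5C3B were named after their values were seen. Probes carried 1 symbol in 23730 cases, several in 46 and none in 19827. Replicate numbers did not pair the samples. Values of 1 gene are not reported here.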

Additional observations from a re-analysis of the deposited data

How the results depend on the processing

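NT5C3B stayed higher with dexamethasone in every setting that gave a value, and its log2 difference of 1.87 became 3.81 with processed signals, 2.54 with no background correction, 1.40 with the 75th percentile (where the median of all genes was -0.30, so 1.70 above it), 2.87 with the deposited series table (median of all genes 0.14, so 2.73 above it), 2.22 in Cy3 and 1.52 in Cy5 samples, 0.53 and 0.19 with the median of the 8 or 6 nearest spots subtracted, and 1.66 to 2.08 with a sample or array left out. It was not kept where every sample had to be above background. The number of genes called, 7, was 14 with processed signals (6 higher), 2218 with the 75th percentile (48 higher, 2.16% against 28.6%), 2 with no filter on dim probes, 30 with no array block, 0 with array means (1023 at an unadjusted p under 0.05), 18 with no dye term, 0 in Cy3 samples (1410 unadjusted), 0 in Cy5 samples (570 unadjusted), 23 and 26 with 8 or 6 nearest spots subtracted, 24 at a threshold of 0.1 and 1 with a replicate block. The share of higher calls was 42.9% with processed signals, 50% with no background correction and 57.1% with quantile normalisation. The replicate block left the NT5C3B difference at 1.87, and same-numbered samples did not deviate together (r -0.13 to 0.10). Leaving out samples gave 0 to 2179 called genes: 0 without any one dexamethasone sample or array (560 to 1165 unadjusted), 14 without saline sample 2, 228 without saline samples 3 and 4 and 2179 without saline samples 1 and 2. With that last array left out, 12 list genes and 1 neighbour (0 to 12 and 0 to 1 over all omissions) were called, when 2179 of all 10125 genes tested were. The 75th percentile called 2 other 5'-nucleotidases and 12 list genes, all lower, when it called 2218 of all 10676 genes tested.

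Small differences changed sign. With the 75th percentile, NT5E was -0.96, HDHD3 0.10, ADORA2A 0.51, IMPDH1 -0.74, PNP -0.25, UCKL1 0.39, NKIRAS2 -0.68, CPNE2 -1.01, A_04_P048710 -0.17 and HCCS 0.42. A_04_P048710 was -0.14 with processed signals and -0.0049 with no background correction. In the series table ADORA2A was 0.0019 and HCCS 0.081. In Cy5 samples NT5C3A was -0.081, NT5E -0.0083, SLC29A2 0.038 and EIF1 -0.19. With 6 or 8 nearest spots subtracted, NT5C3A was -0.098 or -0.013, NT5E -0.0098 or -0.015 and EIF1 -0.14 or -0.085. Over omissions NT5E ranged from -0.044 to 0.11, ADORA2A from -0.47 to 0.070, ENTPD6 from -0.13 to 0.47, P3H4 from -0.018 to 0.25, EIF1 from -0.075 to 0.12 and A_04_P048710 from -0.13 to 0.19. The cause of these changes was not tested. Signal limits NT5C3B in saline, where 2 of 4 samples were not well above background.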

Other observations

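Spots that differ strongly between dexamethasone and saline often lie beside each other over the whole array. Of 43803 non-control spots, 84 were higher with dexamethasone by more than 1 on the log2 scale, and 63 of them (75%) had such a spot among their 8 nearest. On the lower side, 240 spots passed -1, and 160 (66.7%) had such a spot among their nearest. Over all spots the shares past 1 were 0.192% higher and 0.548% lower.

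The 5 genes called lower were looked at in the same way after their values were seen. A_04_P037452 stood at -1.46 while the median over its 8 nearest spots was -0.02, and 0 of them were below -0.5. XM_002716799 stood at -1.01 with 1 such spot. CU465234 stood at -1.35 with 3 such spots. EB378866 and EB373923, with 3 and 4 such spots, were well above background in 0 of 4 dexamethasone samples. In this normalisation they were at least 2.71-fold and 2.38-fold lower with dexamethasone.

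Within 1200 µm of NT5C3B, 16 of 946 spots on the array of dexamethasone samples 1 and 2 exceeded the mean of the other arrays by more than 1, and 16 of these had an adjacent spot that did so too. The count was 1 spot on the array of dexamethasone samples 3 and 4, where 0 had such a neighbour. It was 6 on the array of saline samples 1 and 2, of which 4 had one, and 6 on the array of saline samples 3 and 4, of which 3 had one. For a dexamethasone array, the other arrays include the second dexamethasone array, so these counts miss spots bright on both. Against the saline mean alone, NT5C3B stood 1.66 and DOCK1 1.57 higher on the array of dexamethasone samples 3 and 4.

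The 10 spike-in probes, RNA of known amount added before labelling, were all lower with dexamethasone before the between-array step, by a median of -0.17 on the log2 scale (range -0.77 to -0.03).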
